A study of Mus musculus with 13 samples.

Results

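The genes described here are 38 markers of lymphocytes and of the stroma and vessels of lymph nodes, taken by name from a gene table of 54532 rows. The rule uses no measured value, but the list was drawn up with earlier results of these data known. They were read in 13 mice, in the inguinal white adipose tissue, a fat pad that lies under the skin of the groin. Where a symbol had several rows, the row with the highest mean was taken. The members fall into 4 roles, with 12 T cell genes, 6 natural killer (NK) and cytotoxic cell genes, 14 B cell genes and 6 genes of lymph node stroma and vessels.

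Each library was made from total RNA of a single mouse that had fasted for 12 h. SC_ConD is 3 mice with undisturbed sleep on chow, SF_ConD is 5 mice with fragmented sleep on the same chow, and SF_HPD is 5 mice with fragmented sleep fed a high-protein diet. Of that diet's energy, protein gave 50%, fat 12% and carbohydrate 38%. Allotment to the groups was random with matched weights. The sources used here give no strain, age, sex or length of the sleep treatment, and do not say whether a lymph node was taken with the fat.

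T cells recognise antigen through a receptor that signals through the CD3 chains, and B cells through a surface immunoglobulin that signals through CD79A and CD79B. In a lymph node both enter from the blood through high endothelial venules, whose sulphated mucins bind L-selectin. Stromal cells then sort them by chemokines, with CCL19 and CCL21 drawing cells into the T cell zone and CXCL13 drawing B cells into follicles. In the mouse, the inguinal lymph node lies embedded in this fat pad, and lymphocytes also live scattered among the adipocytes.

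Recovered reads on genes ran from 14815592 to 18303302 per library. Mitochondrial genes took 2.82% (SF_HPD 1) to 33.2% (SF_ConD 5) of these reads, and 25.5% in SF_HPD 5. Over the genes kept for testing, each library's levels relative to the median of all libraries leaned with gene length. Spearman's rho of this lean ran from -0.45 in SF_ConD 1 to 0.53 in SF_HPD 1. The part of either in the members' levels was not tested. The deposited values are FPKM, fragments scaled by gene length and by library depth, and their sums differed 5.03-fold between libraries. Adipocyte markers (8 genes, Adipoq among them) averaged 6.87 to 8.86 on the log2(FPKM + 1) scale in 12 libraries. In SF_HPD 2 they averaged 3.93, with Adipoq at 26.1 FPKM and Lep listed at 0. Markers of liver (7 genes) averaged 8.82 and 7.59 in SC_ConD 2 and 3 and 0.88 to 3.66 in the other 11 libraries. Markers of skeletal muscle (6 genes) averaged 11.04 in SF_HPD 4 and 7.36 in SC_ConD 3, against 0.51 to 3.44 elsewhere. These are bulk libraries, in which fewer cells of a type and less RNA per cell cannot be told apart.

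The members were high in 5 of the 13 mice and low in the other 8. In SF_ConD 1, 4 and 5 and SF_HPD 4 and 5 the mean of log2(FPKM + 1) over the 38 members was 4.80, 4.35, 4.03, 3.54 and 3.88. In SC_ConD 1 to 3 it was 0.46, 1.07 and 0.78, in SF_ConD 2 and 3 it was 1.18 and 0.40, and in SF_HPD 1 to 3 it was 0.39, 0.29 and 0.83. No mouse lay between 1.18 and 3.54. Both groups with fragmented sleep thus held mice of either kind, and all 3 mice with undisturbed sleep were low. As group means this was 0.77 ± 0.30 (SD, n = 3) in SC_ConD, 2.95 ± 2.01 (SD, n = 5) in SF_ConD and 1.78 ± 1.77 (SD, n = 5) in SF_HPD.

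**Figure D1:**
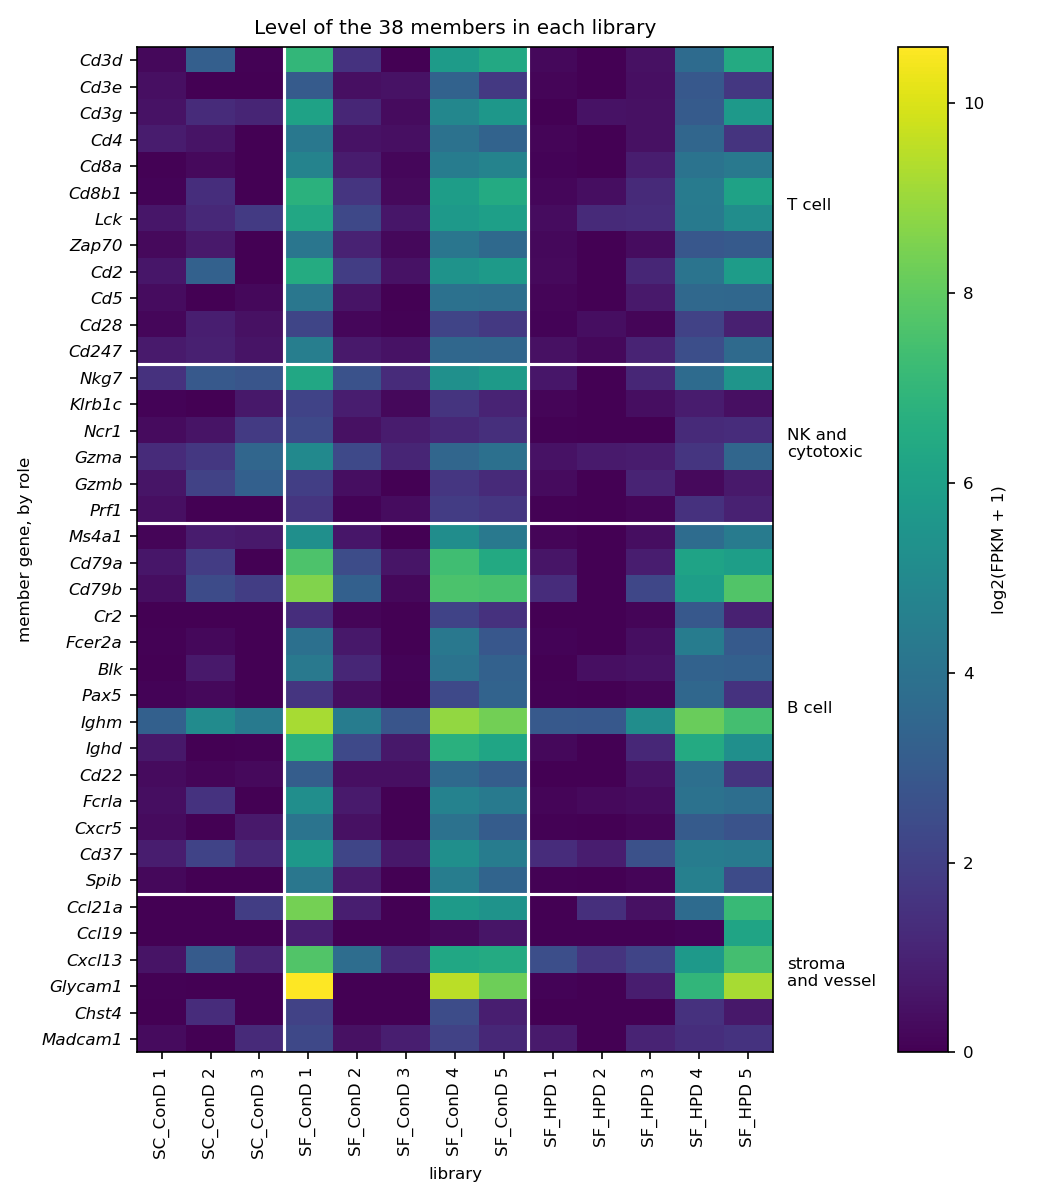
Level of each of the 38 members (rows, by role) in each of the 13 libraries (columns, by group), as log2(FPKM + 1). The columns of SF_ConD 1, 4 and 5 and SF_HPD 4 and 5 are bright over nearly all rows. The other 8 columns are mostly dark, except for Ighm and for parts of other rows. These include NK and cytotoxic genes, Cxcl13, Cd3d and Cd2 in SC_ConD 2, and Cd79b in SF_ConD 2.

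For 32 of the 38 members, these same 5 libraries were the 5 highest of the 13. Over the 14421 genes kept by the filter on low values (at least 1 FPKM in at least 3 libraries), the same 5 libraries were the highest for 613 genes, or 4.25%. The 5 were singled out by the members' own levels, so the members' count is a description. Ccl19 counts among the 32 with 1 read in SF_HPD 4 (0.0668 FPKM) and 3 reads in SF_ConD 4 (0.171 FPKM), where a count of 0 in the other 8 libraries allows up to 0.162 to 0.400 FPKM, so the place of these 2 libraries is not resolved. The 6 exceptions were the NK and cytotoxic genes Klrb1c, Ncr1, Gzma and Gzmb and the vessel genes Chst4 and Madcam1. Of the 38 members, 37 passed the filter, and Ccl19 did not.

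Markers of dendritic cells (7 genes, Flt3, Ccl22 and Fscn1 among them) averaged 2.38 to 2.82 on the log2 scale in those 5 libraries and 0.55 to 1.31 in the other 8. Macrophage markers (8 genes) averaged 3.34 to 4.23 in the 5 and 2.23 to 4.34 in the 8, with no member at 0 in any library. Adipocyte markers averaged 6.87 to 8.20 in the 5 and 3.93 to 8.86 in the 8, with the lowest in SF_HPD 2. Their share of all reads was 1.17% to 2.02% in the 5. It was 0.195% in SF_HPD 2 and 2.11% to 3.79% in the rest of the 8, so apart from SF_HPD 2 the shares did not overlap. By list mean, dendritic cell genes were thus set apart in the same 5 mice, and macrophage and adipocyte genes were not. Single genes differed. Zbtb46 of the dendritic cell list was highest in SF_HPD 1 at 2.98 FPKM. It reached 2.92 FPKM in SC_ConD and at most 2.70 FPKM in SF_ConD. The other genes of that list each had their highest value within the 5. The part of other cells in the members' levels was not tested.

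**Figure D2:**
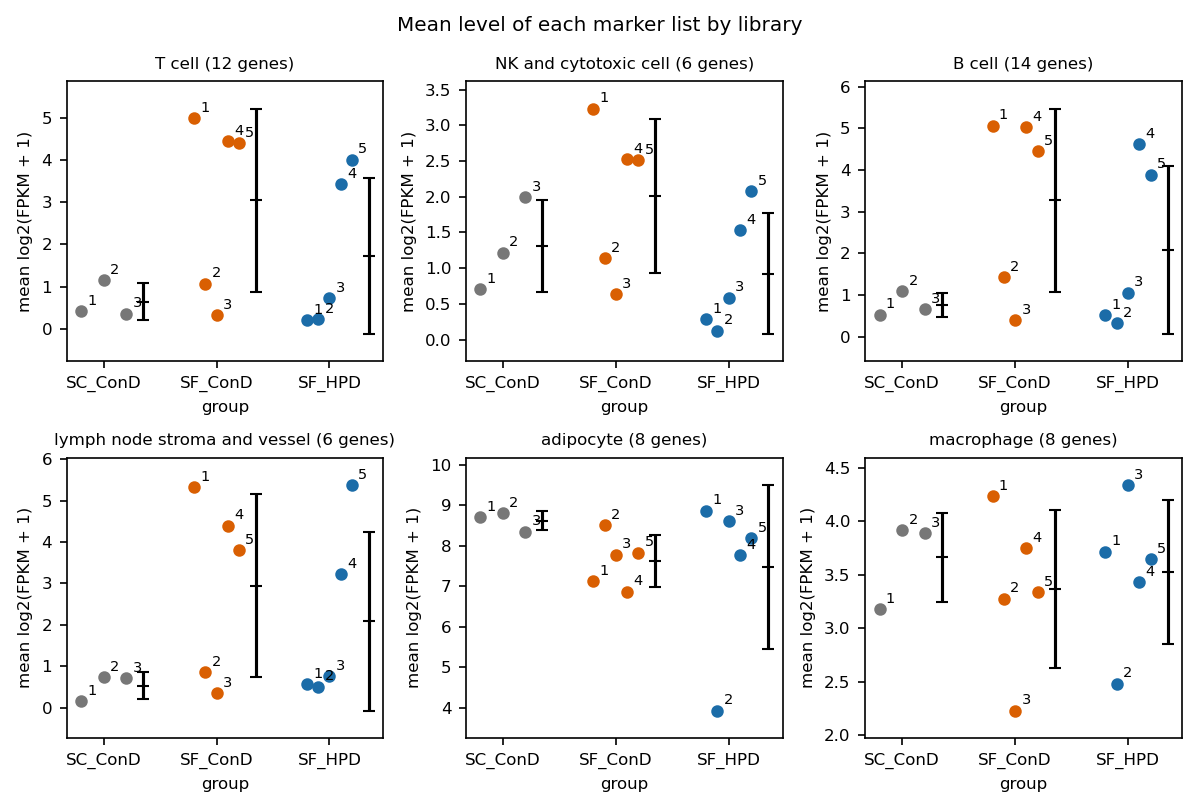
Mean log2(FPKM + 1) of each role and of the adipocyte and macrophage lists, with 1 point per library (labelled with its replicate number) and, at the right of each group, the group mean ± SD. In the T cell, B cell and stroma panels the points of SF_ConD 1, 4 and 5 and SF_HPD 4 and 5 stand above all others, and in the NK and cytotoxic panel SC_ConD 3 reaches 2.0, above SF_HPD 4 at 1.53.

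T cell genes set the 5 mice apart for all 12 members. Cd3e, an invariant chain of the T cell receptor complex, was at 7.32, 9.20 and 2.37 FPKM in SF_ConD 1, 4 and 5 and at 6.48 and 2.32 FPKM in SF_HPD 4 and 5. In the other libraries it was at 0.349, 0 and 0 FPKM in SC_ConD 1 to 3, at 0.361 and 0.423 FPKM in SF_ConD 2 and 3, and at 0.0918, 0 and 0.351 FPKM in SF_HPD 1 to 3. A value of 0 allows up to 3 reads, which for Cd3e is 0.0647 to 0.0849 FPKM in these libraries. The lowest of the 5 was thus several times the highest of the 8, and every SF_ConD library lay above every SC_ConD library, by as little as 0.361 against 0.349 FPKM.

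Cd4, the coreceptor of helper T cells, was at 17.7, 14.8 and 9.32 FPKM in SF_ConD 1, 4 and 5. In SF_HPD 4 and 5 it was at 10.3 and 2.03 FPKM. Elsewhere it was at 0.736, 0.454 and 0.0218 FPKM in SC_ConD 1 to 3, at 0.415 and 0.363 FPKM in SF_ConD 2 and 3, and at 0.116, 0 and 0.395 FPKM in SF_HPD 1 to 3. SF_HPD 5 stood closer to the 8 low libraries for Cd4 than the other 4 high ones did.

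Cd8a, a chain of the coreceptor of cytotoxic T cells, was at 25.7, 20.5 and 25.5 FPKM in SF_ConD 1, 4 and 5 and at 15.2 and 18.5 FPKM in SF_HPD 4 and 5. It was at 0.0489, 0.207 and 0 FPKM in SC_ConD 1 to 3, at 0.755 and 0.129 FPKM in SF_ConD 2 and 3, and at 0.0773, 0 and 0.802 FPKM in SF_HPD 1 to 3. Within the 5 high libraries Cd8a varied only 1.69-fold, less than every other T cell member except Cd5, a restrainer of receptor signalling, at 1.64-fold.

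Zap70, the kinase recruited to the CD3 chains, was at 17.1, 16.6 and 11.3 FPKM in SF_ConD 1, 4 and 5 and at 6.31 and 7.08 FPKM in SF_HPD 4 and 5. It was at 0.198, 0.648 and 0 FPKM in SC_ConD 1 to 3, at 1.01 and 0.175 FPKM in SF_ConD 2 and 3, and at 0.172, 0 and 0.266 FPKM in SF_HPD 1 to 3. The other 8 T cell genes had the same 5 libraries on top. Their highest values ran from 3.63 FPKM for Cd28, the costimulatory receptor, to 129 FPKM for Cd3d, another CD3 chain, all in SF_ConD 1. Cd3d was at 8.13 FPKM (137 reads) in SC_ConD 2, where Cd3e had no read. SF_ConD 1 was the highest library for 11 of the 12 T cell genes, and SF_ConD 4 for Cd3e. 3 of these genes, Cd3g, Cd3d and Cd3e, lie next to each other on chromosome 9 (GRCm38, 44969572 to 45009627), and Cd8b1 and Cd8a are neighbours on chromosome 6.

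NK and cytotoxic genes followed the 5 mice less closely. Gzma, a granule protease of killer cells, was at 31.3, 10.4 and 13.8 FPKM in SF_ConD 1, 4 and 5 and at 2.07 and 10.2 FPKM in SF_HPD 4 and 5. It was at 1.47, 2.25 and 10.4 FPKM in SC_ConD 1 to 3, at 4.13 and 1.14 FPKM in SF_ConD 2 and 3, and at 0.419, 0.689 and 0.738 FPKM in SF_HPD 1 to 3. SC_ConD 3 was as high as SF_ConD 4 and SF_HPD 5, and SF_HPD 4 was below SC_ConD 2.

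Ncr1, the activating receptor NKp46, which marks NK cells, was at 4.08, 1.25 and 1.69 FPKM in SF_ConD 1, 4 and 5 and at 1.39 and 1.57 FPKM in SF_HPD 4 and 5. It was at 0.231, 0.489 and 2.46 FPKM in SC_ConD 1 to 3, at 0.392 and 0.747 FPKM in SF_ConD 2 and 3, and at 0.0304, 0 and 0 FPKM in SF_HPD 1 to 3. No library held more than 95 reads of it. Only SF_ConD 1 was above SC_ConD 3.

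Klrb1c, the NK receptor known as NK1.1, was at 3.39, 2.04 and 1.09 FPKM in SF_ConD 1, 4 and 5 and at 0.763 and 0.341 FPKM in SF_HPD 4 and 5. It was at 0.0802, 0 and 0.594 FPKM in SC_ConD 1 to 3, at 0.792 and 0.176 FPKM in SF_ConD 2 and 3, and at 0.111, 0 and 0.305 FPKM in SF_HPD 1 to 3. Here SF_HPD 4 and 5 lay among the low libraries. Gzmb, another granule protease, was highest in SC_ConD 3 at 8.39 FPKM, followed by SC_ConD 2 at 3.22 FPKM and SF_ConD 1 at 2.85 FPKM, and in SF_HPD 4 it was at 0.202 FPKM. In SC_ConD 3, which held these killer cell transcripts, Cd3e, Cd8a and Cd79a were at 0 and Cd3d at 0.0485 FPKM. Other T and B cell genes were present there, with Lck at 2.49 FPKM (83 reads), Cd3g at 1.16 FPKM, Cd79b at 2.77 FPKM and Ighm at 18.8 FPKM. The same library was also high in the liver and muscle markers given above, and their part in its killer cell genes was not tested.

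The 2 remaining genes of this role, Nkg7 and Prf1, did have the same 5 libraries on top. Nkg7, a granule membrane protein, was at 81.0, 39.3 and 53.0 FPKM in SF_ConD 1, 4 and 5, at 11.9 and 45.5 FPKM in SF_HPD 4 and 5 and at most at 6.71 FPKM elsewhere. Prf1, which encodes perforin, was at 0.976 to 2.66 FPKM in the 5 and at most at 0.344 FPKM in the others.

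The promoters of this role share a short motif that the choice of members did not use. TGTGGT, the core bound by Runx factors, was searched on both strands in the 150 bases before the RefSeq start (GRCm38.p6) of the 28 members with an entry. It was found in 7 of the 28, or 25.0%, against 7.72% of 20480 promoters of the same length. All 6 NK and cytotoxic genes held it, and the seventh was the T cell kinase Lck. The 7 are shown because they include every gene of this role, 5′ to 3′ on each gene's strand, with the motif or its complement ACCACA in capitals.
Gzma (chr13:113100982-113101131, minus strand): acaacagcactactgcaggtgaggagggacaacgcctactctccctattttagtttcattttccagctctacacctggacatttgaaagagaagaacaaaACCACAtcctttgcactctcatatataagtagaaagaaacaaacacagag
Gzmb (chr14:56262335-56262484, minus strand): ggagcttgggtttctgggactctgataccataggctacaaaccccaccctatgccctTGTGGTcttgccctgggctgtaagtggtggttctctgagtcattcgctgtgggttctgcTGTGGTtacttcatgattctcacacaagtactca
Klrb1c (chr6:128788642-128788791, minus strand): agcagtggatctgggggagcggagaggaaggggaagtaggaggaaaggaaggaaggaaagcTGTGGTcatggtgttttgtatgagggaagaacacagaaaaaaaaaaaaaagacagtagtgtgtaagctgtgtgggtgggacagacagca
Ncr1 (chr7:4337574-4337723, plus strand): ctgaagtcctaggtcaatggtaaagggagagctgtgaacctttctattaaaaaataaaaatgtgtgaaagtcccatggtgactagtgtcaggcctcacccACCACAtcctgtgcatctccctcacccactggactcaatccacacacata
Nkg7 (chr7:43436988-43437137, plus strand): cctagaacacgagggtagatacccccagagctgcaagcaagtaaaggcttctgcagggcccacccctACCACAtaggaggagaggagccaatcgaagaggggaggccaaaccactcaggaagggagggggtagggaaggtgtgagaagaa
Prf1 (chr10:61297686-61297835, plus strand): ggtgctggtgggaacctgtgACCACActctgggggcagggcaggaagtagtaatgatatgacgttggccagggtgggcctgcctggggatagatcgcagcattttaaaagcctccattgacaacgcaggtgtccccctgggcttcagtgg
Lck (chr4:129573642-129573791, minus strand): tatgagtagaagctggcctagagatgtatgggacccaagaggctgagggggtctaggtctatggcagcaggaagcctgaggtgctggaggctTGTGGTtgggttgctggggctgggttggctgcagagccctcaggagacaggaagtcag

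The match began 50 bases before the start in Gzma and Ncr1, 93 and 34 bases before it in Gzmb, 89 in Klrb1c, 83 in Nkg7, 130 in Prf1 and 58 in Lck. The RefSeq start of Klrb1c lay 574 bases from the start in the gene table, that of Gzmb 74, of Nkg7 65 and of Prf1 3, and those of the other 3 coincided. No match overlapped another searched motif. A match of these letters is a description and not evidence of binding.

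B cell genes had the same 5 libraries on top for all 14 members and held some of the largest values. Cd79a, a signalling chain of the B cell receptor, was at 196, 164 and 85.7 FPKM in SF_ConD 1, 4 and 5 and at 70.6 and 60.7 FPKM in SF_HPD 4 and 5. It was at 0.570, 2.66 and 0 FPKM in SC_ConD 1 to 3, at 4.46 and 0.502 FPKM in SF_ConD 2 and 3, and at 0.514, 0 and 0.801 FPKM in SF_HPD 1 to 3. The lowest of the 5, SF_HPD 5, was thus far above the highest of the 8, SF_ConD 2.

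Ms4a1, which encodes the B cell surface protein CD20, was at 37.7, 35.6 and 18.7 FPKM in SF_ConD 1, 4 and 5 and at 12.3 and 20.3 FPKM in SF_HPD 4 and 5. It was at 0.0959, 0.731 and 0.640 FPKM in SC_ConD 1 to 3, at 0.563 and 0.0253 FPKM in SF_ConD 2 and 3, and at 0.0984, 0 and 0.309 FPKM in SF_HPD 1 to 3. No low library reached 1 FPKM.

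Ighm, the constant region of IgM, was the B cell member with the highest mean. It was at 591, 469 and 321 FPKM in SF_ConD 1, 4 and 5 and at 292 and 172 FPKM in SF_HPD 4 and 5. It was at 8.49, 33.7 and 18.8 FPKM in SC_ConD 1 to 3, at 20.6 and 6.01 FPKM in SF_ConD 2 and 3, and at 6.85, 6.49 and 35.7 FPKM in SF_HPD 1 to 3. Ighm had at least 106 reads in every mouse, and Cd37 was the other B cell gene listed at 0 in none, with at least 25 reads.

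Ighd, the constant region of IgD, which naive B cells carry beside IgM, was at 108, 105 and 74.9 FPKM in SF_ConD 1, 4 and 5 and at 88.9 and 38.2 FPKM in SF_HPD 4 and 5. It was at 0.625, 0 and 0.0463 FPKM in SC_ConD 1 to 3, at 3.98 and 0.605 FPKM in SF_ConD 2 and 3, and at 0.173, 0 and 1.26 FPKM in SF_HPD 1 to 3. The ratio of Ighm to Ighd FPKM was 5.45, 4.48 and 4.28 in SF_ConD 1, 4 and 5 and 3.28 and 4.50 in SF_HPD 4 and 5. In SC_ConD 1 and SF_HPD 3 it was 13.6 and 28.4, and in SC_ConD 2 and 3 Ighm had 591 and 403 reads beside 0 and 1 read of Ighd. In SF_ConD 2 and 3 it was 5.17 and 9.94. The 2 genes are neighbours on chromosome 12, and the sources used here do not say whether reads were counted by strand.

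Fcer2a, the low-affinity IgE receptor CD23 of follicular B cells, was at 14.1, 17.8 and 6.36 FPKM in SF_ConD 1, 4 and 5 and at 20.7 and 6.92 FPKM in SF_HPD 4 and 5. It was at 0.0384, 0.174 and 0 FPKM in SC_ConD 1 to 3, at 0.585 and 0 FPKM in SF_ConD 2 and 3, and at 0.0757, 0 and 0.309 FPKM in SF_HPD 1 to 3. Cr2, the complement receptor CD21 of B cells and follicular dendritic cells, was at 1.59, 3.44 and 1.88 FPKM in SF_ConD 1, 4 and 5 and at 6.59 and 0.970 FPKM in SF_HPD 4 and 5. It was at 0.0219, 0 and 0 FPKM in SC_ConD 1 to 3, at 0.107 and 0 FPKM in SF_ConD 2 and 3, and at 0.00577, 0 and 0.105 FPKM in SF_HPD 1 to 3. Unlike most members, both genes peaked in SF_HPD 4.

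Among the other 8 B cell genes, Pax5 and Spib, transcription factors of the lineage, and Cd22, an inhibitory receptor, also peaked in SF_HPD 4, at 10.5, 23.5 and 13.5 FPKM. Cd79b, the partner of CD79A, the kinase gene Blk, Fcrla, the follicle homing receptor gene Cxcr5 and the tetraspanin gene Cd37 peaked in SF_ConD 1, at 385, 18.4, 37.1, 15.9 and 49.0 FPKM. In SF_ConD every library was above every SC_ConD library for Cd22, by 0.342 against 0.224 FPKM at the closest.

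Genes of lymph node stroma and vessels showed the widest spread. Glycam1, a sulphated mucin of high endothelial venules that is also made by mammary epithelium, was at 1545, 717 and 304 FPKM in SF_ConD 1, 4 and 5 and at 124 and 593 FPKM in SF_HPD 4 and 5. It was at 0.0556, 0 and 0 FPKM in SC_ConD 1 to 3, at 0 in both SF_ConD 2 and 3, and at 0.0659, 0 and 0.796 FPKM in SF_HPD 1 to 3. A count of 0 reads allows up to 0.0735 to 0.163 FPKM of Glycam1 in those libraries, while SF_ConD 1 held 49870 reads. It had the highest mean of all 38 members.

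Glycam1 levels were set beside mammary epithelium markers (8 genes), which averaged 0.39 to 4.31 on the log2 scale in the 5 high libraries and 2.30 to 4.88 in the other 8. Their summed level was 2.93 to 672 FPKM in the 5 and 117 to 6509 FPKM in the 8. Of the milk genes, Wap was at 0 in every library, Lalba was at most at 0.785 FPKM, and Csn3 was at 0 in SF_HPD 4, where Glycam1 was at 124 FPKM. SF_HPD 2, the library highest in mammary markers, had no read of Glycam1. The part of mammary epithelium in the Glycam1 levels was not tested.

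Cxcl13, the B cell chemokine of follicles, was at 207, 78.9 and 87.4 FPKM in SF_ConD 1, 4 and 5 and at 51.4 and 170 FPKM in SF_HPD 4 and 5. It was at 0.464, 7.21 and 1.07 FPKM in SC_ConD 1 to 3, at 12.7 and 1.36 FPKM in SF_ConD 2 and 3, and at 4.80, 2.01 and 3.51 FPKM in SF_HPD 1 to 3. Every library had at least 9 reads of it.

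Madcam1, an adhesion molecule of venules that binds lymphocyte integrin, was highest in 4 of the 5 mice. It was at 3.86, 3.31 and 1.27 FPKM in SF_ConD 1, 4 and 5 and at 1.61 and 1.97 FPKM in SF_HPD 4 and 5. It was at 0.248, 0 and 1.41 FPKM in SC_ConD 1 to 3, at 0.373 and 0.873 FPKM in SF_ConD 2 and 3, and at 0.717, 0 and 1.07 FPKM in SF_HPD 1 to 3. SC_ConD 3 was above SF_ConD 5. Chst4, the sulphotransferase that completes the L-selectin ligand, was at 0.619 to 4.44 FPKM in the 5 and listed at 0 in 7 of the 8, with 1.51 FPKM in SC_ConD 2.

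Madcam1 and Cxcl13 are shown because each holds a searched motif in the 150 bases before its start (RefSeq, GRCm38.p6). Madcam1 was the only 1 of the 28 members, or 3.57%, with the kappaB motif (GGG, a pair of any bases, then TTTCC), which it holds in complement 83 and 70 bases before its start. Over all 20480 promoters 0.869% held it. TATAAA, the TATA box, was found in 2 of the 28, or 7.14%, against 7.54% of all. It begins 46 bases before the start of Cxcl13 and 33 bases before that of Fcer2a. Capitals mark the motifs.
Madcam1 (chr10:79664409-79664558, plus strand): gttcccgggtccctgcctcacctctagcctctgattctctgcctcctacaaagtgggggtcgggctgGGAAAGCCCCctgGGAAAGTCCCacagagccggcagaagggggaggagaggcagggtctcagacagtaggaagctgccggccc
Cxcl13 (chr5:95956789-95956938, plus strand): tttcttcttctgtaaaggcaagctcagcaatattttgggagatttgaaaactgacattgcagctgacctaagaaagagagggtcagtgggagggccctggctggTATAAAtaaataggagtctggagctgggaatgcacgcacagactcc

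Of the other motifs searched, the ETS motif GAGGAAGT was found in 2 of the 28 (Cd5 and Cd37, 7.14%, against 1.64% of all). The octamer ATTTGCAT was in none of the 28 and in 0.981% of all, which says only that these letters are not in this window.

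Ccl19 and Ccl21a have near-identical copies, so their rows are uncertain. Ccl19 on chromosome 4 (GRCm38, 42754525 to 42756577) was at 0.838, 0.171 and 0.502 FPKM in SF_ConD 1, 4 and 5 and at 0.0668 and 72.0 FPKM in SF_HPD 4 and 5. In SC_ConD 1 to 3, SF_ConD 2 and 3 and SF_HPD 1 to 3 it was at 0. By this row alone SF_HPD 5 was far the highest, followed by SF_ConD 1 and 5 with 11 and 5 reads. The pseudogene Ccl19-ps3 on the same chromosome took 489, 134, 253, 101 and 53 reads in SF_ConD 1, 4 and 5 and SF_HPD 4 and 5, where Ccl19 took 11, 3, 5, 1 and 619. Summed over the 4 rows of this family, reads were 501, 138, 258, 102 and 672 in these libraries and 0 to 10 in the other 8. The sum set the same 5 mice apart and was highest in SF_HPD 5. How reads were divided between the rows was not tested.

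**Figure D3:**
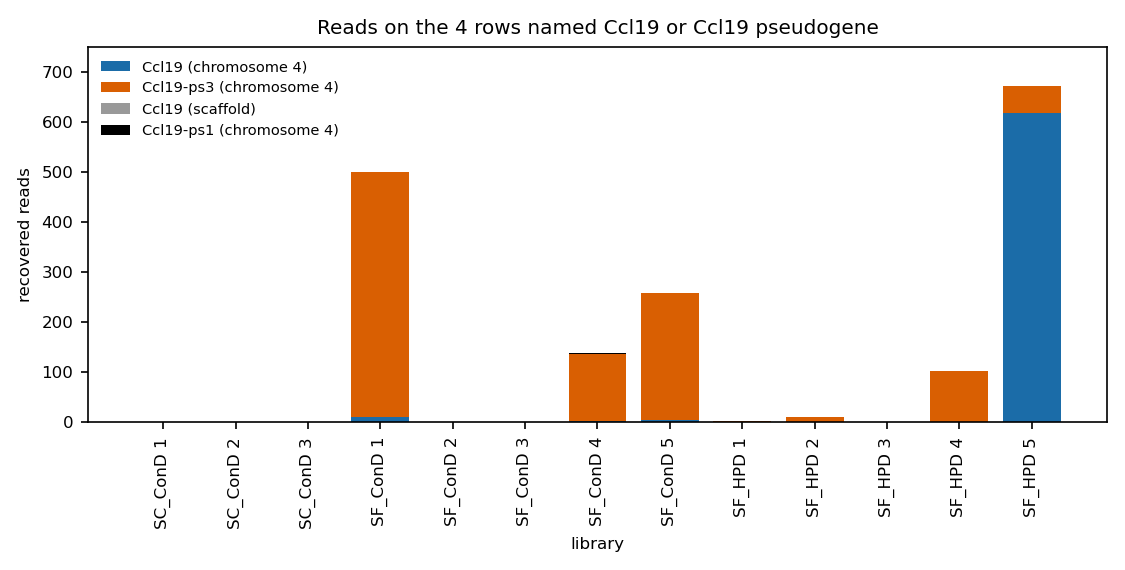
Recovered reads on the 4 rows named Ccl19 or a Ccl19 pseudogene, stacked by row, in each of the 13 libraries. Bars are visible in SF_ConD 1, 4 and 5 and SF_HPD 4 and 5, and Ccl19 itself makes up most of the bar only in SF_HPD 5 (619 of 672 reads).

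Ccl21a, the chemokine gene of the T cell zone, is represented by a row on the unplaced scaffold JH584294.1 (GRCm38). It was at 329.8, 53.8 and 42.6 FPKM in SF_ConD 1, 4 and 5 and at 12.1 and 141 FPKM in SF_HPD 4 and 5. It was at 0, 0 and 2.84 FPKM in SC_ConD 1 to 3, at 0.833 and 0 FPKM in SF_ConD 2 and 3, and at 0, 1.72 and 0.396 FPKM in SF_HPD 1 to 3. Summed over 9 rows of Ccl21 genes and copies, reads were 2266, 572 and 238 in SF_ConD 1, 4 and 5, 144 and 629 in SF_HPD 4 and 5, and 0 to 47 elsewhere. The order of the 5 was the same by row and by sum.

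The 5 high mice did not hold the members in one fixed proportion. The ratio of Cd79a, a B cell gene, to Cd3d, a T cell gene, was 1.52, 2.97 and 1.03 in SF_ConD 1, 4 and 5 and 5.94 and 0.691 in SF_HPD 4 and 5. With Cd79b in place of Cd79a it varied less, at 2.98, 3.45, 2.19, 5.1 and 2.40 in the same order. Among other B to T cell pairs, Ms4a1 over Cd28 was 10.4, 10.1, 7.92, 3.76 and 22.0. Cd22 over Cd4 was 0.433, 0.77, 0.827, 1.31 and 0.997, and Fcer2a over Zap70 was 0.827, 1.07, 0.562, 3.29 and 0.977. Within the CD3 complex itself the ratio of Cd3d to Cd3e was 17.7, 6.0, 35.3, 1.83 and 37.8 in the same order. The ratio of Cd8b1 to Cd8a, the 2 chains of 1 receptor, was 4.15, 2.82, 3.42, 1.32 and 3.72. The ratio of Cd4 to Cd8a was 0.688, 0.719, 0.365, 0.681 and 0.110. SF_HPD 4 was lowest for Cd3d over Cd3e and for Cd8b1 over Cd8a, in each of which the first gene is the shorter. These pairs were chosen after their values were seen.

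Member levels in these libraries moved with gene length. Each member's log2 level was taken relative to its median over the 5 libraries. Spearman's rho of that difference with gene length over the 38 members was -0.46, 0.37 and -0.16 in SF_ConD 1, 4 and 5 and 0.56 and -0.50 in SF_HPD 4 and 5. Over the 14421 genes kept, the same rho was -0.51, 0.21 and 0.10 and 0.54 and -0.36. The members' rho had the sign of the rho over all genes except in SF_ConD 5, where the signs differed. The points of 1 library share its depth and its RNA, so these are descriptions. The 16 members under 2000 bases had a median difference of 0.85 in SF_ConD 1 and -0.87 in SF_HPD 4. The 8 of 4000 bases or more were at 0.14 and 0 there, and at -0.97 in SF_HPD 5. SF_ConD 1 was the highest of the 5 for 29 of the 38 members, 15 of them among the 16 short ones. SF_HPD 4 was the lowest for 17, 10 of them short, and SF_HPD 5 for 18, 4 of them short. The part of length in the ratios between members was not tested.

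**Figure D4:**
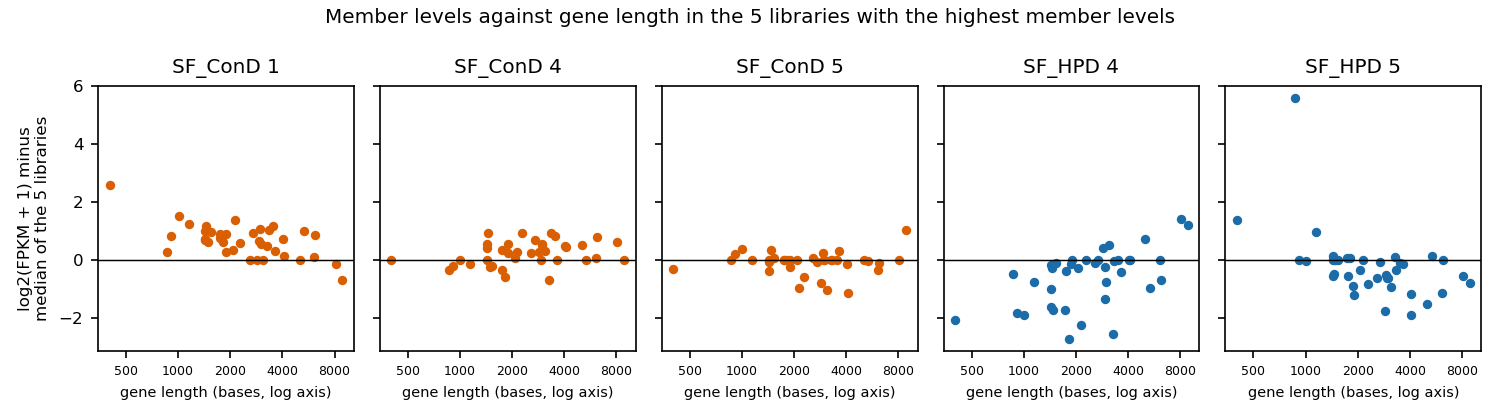
For each of the 5 libraries with the highest member levels, the log2(FPKM + 1) of each of the 38 members minus its median over the 5 libraries (vertical axis) against gene length in bases (horizontal log axis). Short members lie above 0 in SF_ConD 1 and below 0 in SF_HPD 4, and long members lie below 0 in SF_HPD 5.

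The first comparison was of fragmented with undisturbed sleep on chow. Means were higher in SF_ConD for 36 of the 37 members tested, against 47.4% of all genes tested. Cd3e, Cd4, Cd8a and Ighd, among others, stayed under 1 FPKM in every SC_ConD library. Such members passed the filter only through mice with fragmented sleep, which favours a higher mean there, so the count is a description. None of the 37 passed at an adjusted p of 0.05 in limma (smallest adjusted p = 0.847), as none of the 14421 genes did (0%). At an unadjusted p under 0.05, 10 members were higher and none lower, against 2.59% and 3.15% of all genes. Counted in either direction, the number of members was 0 without SF_ConD 1 or without SF_ConD 4, 28 without SF_ConD 3 and 25 without SF_ConD 2. It was 1 or 2 without SF_ConD 5 or any 1 of the SC_ConD libraries. It was 1 with a replicate block and 3 with limma-voom on recovered reads. Of the 14421 genes, 828 were at such a p in the main fit. Without SF_ConD 1 or 4 these were 520 and 487, and without SF_ConD 3 or 2 they were 1119 and 1107. They ran from 364 to 1465 without SF_ConD 5 or any 1 of the SC_ConD libraries. With the block they were 199, and with limma-voom 639. For Cd3e and Cd22 the 2 groups did not overlap, against 1.68% of all genes, and no member was lower without overlap (1.92% of all genes). The median log2 fold change was 2.31 over the members and -0.03 over all genes, and by role it was 2.48 for T cell, 0.95 for NK and cytotoxic, 2.35 for B cell and 3.45 for stroma and vessel genes.

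By name, the B cell genes with the smallest p were Ighd, with a log2 fold change of 4.29 (SE 1.69), Blk at 2.33 (SE 1.03) and Cd79a at 4.05 (SE 1.81). Among T cell genes they were Zap70 at 2.31 (SE 1.0), Cd8b1, the second chain of the CD8 coreceptor, at 3.71 (SE 1.64) and Cd8a at 2.86 (SE 1.27). The stroma and vessel genes were Cxcl13 at 3.55 (SE 1.52), Glycam1 at 5.64 (SE 2.75) and Ccl21a at 3.45 (SE 1.89). Klrb1c was at 0.91 (SE 0.39), Prf1 at 0.98 (SE 0.48) and Gzmb, the only member with a negative value, at -0.92 (SE 0.56). Mean Ighd was 58.5 ± 52.9 FPKM over SF_ConD (SD, n = 5) and 0.224 ± 0.348 FPKM over SC_ConD (SD, n = 3). The SD within SF_ConD was about as large as its mean, with SF_ConD 2 and 3 at 3.98 and 0.605 FPKM.

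Without the 5 high libraries, 21 of the 37 members were higher in SF_ConD, the median over the members was 0.06, and the medians by role were 0.05, -0.34, 0.15 and -0.03 in the order above. Only SF_ConD 2 and 3 remain there, and the 5 were left out after their values were seen.

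The second comparison, of the high-protein diet with chow under fragmented sleep, gave lower means in SF_HPD for all 37 members tested, against 48.1% of all genes. None passed (smallest adjusted p = 1.0, against 0% of all genes called), and at an unadjusted p under 0.05 there were 2 lower, Klrb1c and Gzma, against 1.06% of all genes. The groups overlapped for every member, where 0.229% of genes were higher and 0.229% lower without overlap. The median log2 fold change was -1.13 over the members and 0.01 over all genes. By role it was -1.35 for T cell, -0.77 for NK and cytotoxic, -1.12 for B cell and -1.22 for stroma and vessel genes.

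Klrb1c had a log2 fold change of -0.82 (SE 0.33), Gzma of -1.74 (SE 0.76) and Nkg7 of -2.08 (SE 1.14). Among T cell genes the smallest p went to Cd4 at -1.36 (SE 0.85), Zap70 at -1.35 (SE 0.86) and Lck, the kinase that starts receptor signalling, at -1.69 (SE 1.19). Among B cell genes it went to Cd79a at -2.18 (SE 1.57), Ighd at -1.91 (SE 1.47) and Cxcr5 at -1.13 (SE 0.89). Chst4 was at -0.65 (SE 0.53), Madcam1 at -0.43 (SE 0.42) and Glycam1 at -2.24 (SE 2.38). Mean Klrb1c was 1.5 ± 1.25 FPKM over SF_ConD (SD, n = 5) and 0.304 ± 0.292 FPKM over SF_HPD (SD, n = 5). Klrb1c stayed under 1 FPKM in every SF_HPD and SC_ConD library, so it passed the filter only through SF_ConD. SF_ConD held 3 of the 5 high mice and SF_HPD 2. Without the 5 high libraries 6 of the 37 members were higher in SF_HPD, the median was -0.25, and Glycam1 turned to 0.31.

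The third comparison set fragmented sleep with the high-protein diet against undisturbed sleep on chow. It gave higher means in SF_HPD for 32 of 37 members, against 51.8% of all genes. Here too, members under 1 FPKM in all of SC_ConD passed the filter only through mice with fragmented sleep. None passed (smallest adjusted p = 1.0, against 0% of all genes called). At an unadjusted p under 0.05 no member was higher (1.01% of all genes) and 1, Gzmb, was lower (2.67%), with a log2 fold change of -1.51 (SE 0.56). The groups overlapped for every member, where 0.791% of genes were higher and 0.853% lower without overlap. The median log2 fold change was 0.99 over the members and 0.02 over all genes, and by role 0.98 for T cell, -0.28 for NK and cytotoxic, 1.23 for B cell and 1.91 for stroma and vessel genes.

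Ighd was at 2.38 (SE 1.69), Fcer2a at 1.49 (SE 1.14) and Blk at 1.27 (SE 1.03). Cd8a was at 1.74 (SE 1.27), Cd5 at 1.39 (SE 1.12) and Cd8b1 at 1.98 (SE 1.64). Cxcl13 was at 2.34 (SE 1.52), Glycam1 at 3.40 (SE 2.75) and Ccl21a at 1.91 (SE 1.89), while Gzma was at -0.74 (SE 0.87) and Prf1 at 0.40 (SE 0.48). Gzmb averaged 0.427 ± 0.427 FPKM (SD, n = 5) in SF_HPD and 4.05 ± 3.99 FPKM (SD, n = 3) in SC_ConD, where SC_ConD 3 alone was at 8.39 FPKM. With the replicate number as a block, which keeps only numbers 1 to 3 of each group and so drops SF_HPD 4 and 5, the medians by role were -0.20 for T cell, -1.18 for NK and cytotoxic, -0.04 for B cell and 0.08 for stroma and vessel genes, and Glycam1 was at 0.29 in place of 3.40. The 3 comparisons share groups, so their values for a gene are not independent.

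**Figure D5:**
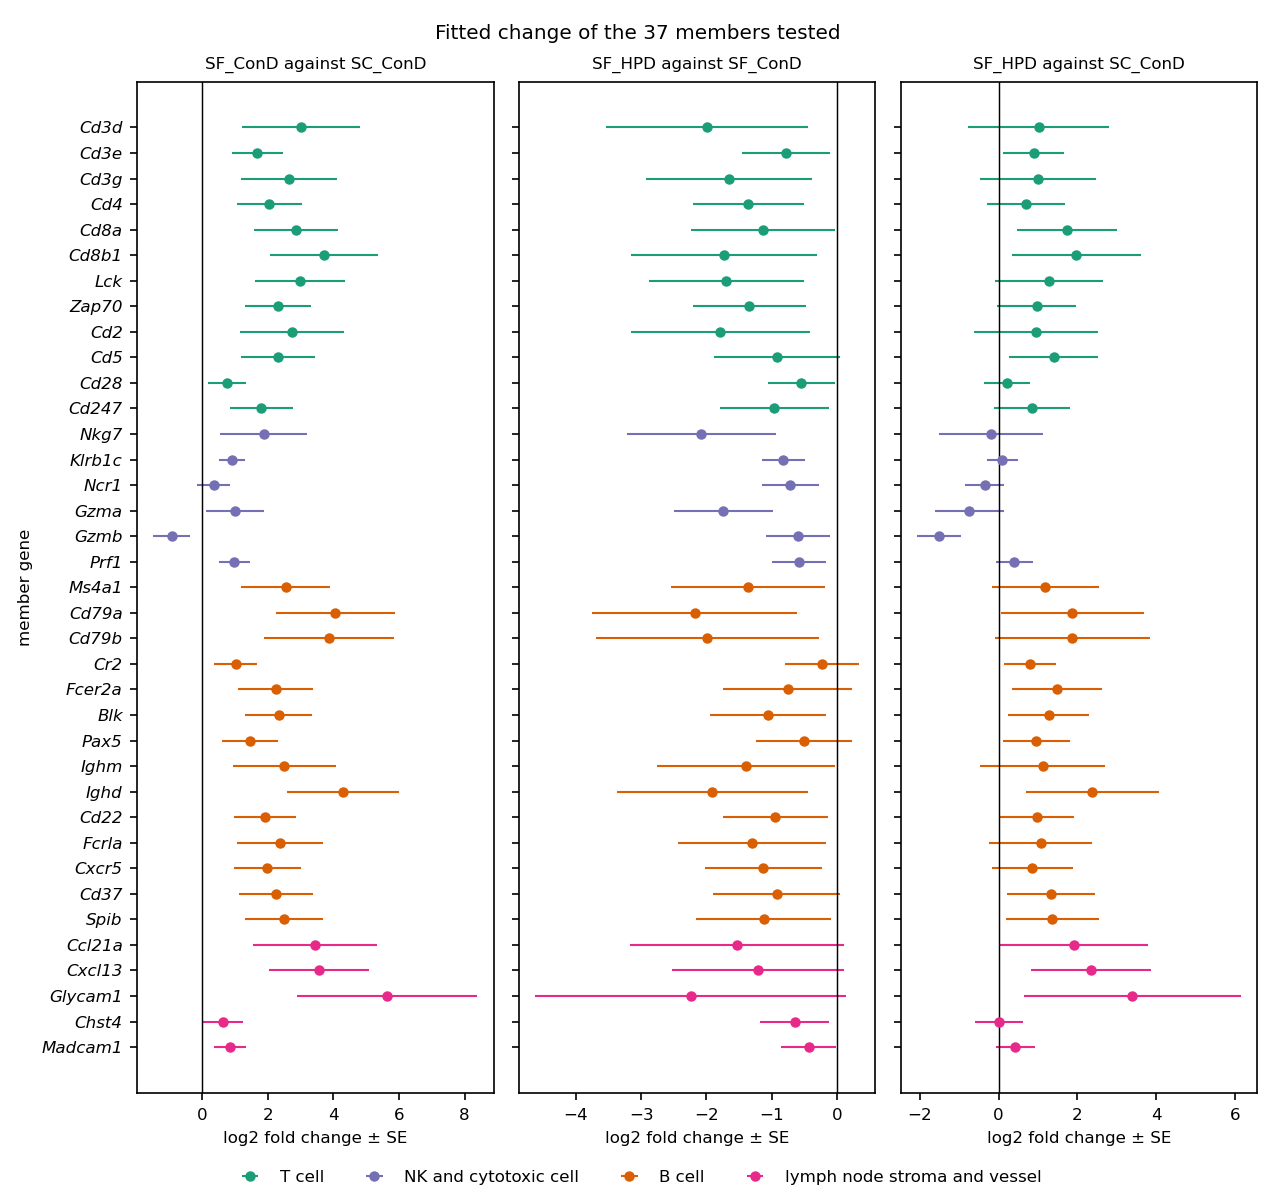
Fitted log2 fold change ± SE of each of the 37 members tested (rows, coloured by role) in the 3 comparisons (panels), on the log2(FPKM + 1) scale, with a line at 0. In SF_ConD against SC_ConD 36 points lie to the right of 0 and Gzmb to the left, in SF_HPD against SF_ConD all 37 lie to the left, and in SF_HPD against SC_ConD 32 lie to the right, most with an SE of about 1.

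Of the pathway genes that are not members, Ltb and Ccr7 were highest in the same 5 mice, as were 4.25% of all genes kept. How many other genes of these lists were so was not counted. Ltb, which encodes the lymphotoxin beta needed to build lymph nodes, was at 407, 205 and 209 FPKM in SF_ConD 1, 4 and 5, at 45.9 and 225 FPKM in SF_HPD 4 and 5, and at most at 8.93 FPKM elsewhere. Ccr7, the receptor for CCL19 and CCL21, was at 81.4, 64.1 and 43.7 FPKM and at 21.1 and 52.7 FPKM in the same libraries, and at most at 1.69 FPKM elsewhere.

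Of 24 further genes of T cell receptor signalling and homing, all tested, 24 had higher means in SF_ConD than in SC_ConD (47.4% of all genes did), 4 of them at an unadjusted p under 0.05 (2.59% of all genes), with a median log2 fold change of 1.35 (-0.03 over all genes). Tcf7, a transcription factor of naive and memory T cells, was at 3.01 (SE 1.26), Ubash3a, a restrainer of receptor signalling, at 1.39 (SE 0.62) and Il7r, the survival receptor for IL-7, at 2.40 (SE 1.10). In SF_HPD against SF_ConD all 24 were lower in mean (48.1% of all genes, median -0.70), with none at an unadjusted p under 0.05 (1.06% of all genes). In SF_HPD against SC_ConD all 24 were higher (51.8% of all genes, median 0.69), again with none at such a p (1.01% of all genes).

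Of 22 further genes of B cell receptor signalling and identity, 21 were tested. Of these, 20 had higher means in SF_ConD than in SC_ConD (47.4% of all genes did, median 1.36). At an unadjusted p under 0.05 there were 5 of them (2.59% of all genes). Ptpn6, the phosphatase SHP-1, was at 2.47 (SE 0.92) and Cd72, an inhibitory coreceptor, at 2.13 (SE 0.84), and neither overlapped between these groups (1.68% of all genes). Fcrl1 was at 2.51 (SE 1.09). In SF_HPD against SF_ConD all 21 were lower in mean (48.1% of all genes, median -0.56). In SF_HPD against SC_ConD 20 were higher (51.8% of all genes, median 0.90).

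Of 12 killer cell receptors and effectors, 8 were tested. All 8 had higher means in SF_ConD than in SC_ConD (47.4% of all genes did, median 0.79). At an unadjusted p under 0.05 there was 1 (2.59% of all genes). That was Tbx21, the transcription factor T-bet, at 0.83 (SE 0.32). In SF_HPD against SF_ConD 7 of the 8 were lower (48.1% of all genes, median -0.72). In SF_HPD against SC_ConD 6 were higher (51.8% of all genes, median 0.31), with Gzmm, a granule protease, at 1.05 (SE 0.47). Of 12 genes of lymphotoxin signalling and lymph node organisation, all tested, 10 were higher in SF_ConD than in SC_ConD (47.4% of all genes, median 0.67). At an unadjusted p under 0.05 there were 2 (2.59% of all genes). These were Ltb at 4.23 (SE 1.89) and Tnfsf11, which encodes the cytokine RANKL, at 1.28 (SE 0.44), and Tnfsf11 did not overlap between the groups (1.68% of all genes). In SF_HPD against SF_ConD 9 of the 12 were lower (48.1% of all genes, median -0.40). In SF_HPD against SC_ConD 10 were higher (51.8% of all genes, median 0.32).

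High endothelial and lymphatic vessel genes had the smallest median differences of the pathway lists named so far. Of 12 such genes 11 were tested, and 8 had higher means in SF_ConD than in SC_ConD (47.4% of all genes did, median 0.53). None was at an unadjusted p under 0.05, where 2.59% of all genes were higher and 3.15% lower. Fut7, a fucosyltransferase of the L-selectin ligand, was at 1.22 (SE 0.60), Vcam1, an adhesion molecule, at 1.26 (SE 0.66) and Prox1, the regulator of lymphatic endothelium, at -0.79 (SE 0.51). In SF_HPD against SF_ConD 6 of the 11 were lower (48.1% of all genes, median -0.02). In SF_HPD against SC_ConD 8 were higher (51.8% of all genes, median 0.17). None of the genes in these lists passed at an adjusted p of 0.05 in limma in any of the 3 comparisons.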

How the data were processed

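Total RNA of inguinal white adipose tissue from 13 mice was sequenced, and the authors deposited 1 table of FPKM per gene, with gene names, lengths and coordinates. The tools named per the submitters' processing notes are CASAVA, HISAT2 2.0.5 and featureCounts 1.5.0-p3, and the build is mm8, with no role or order. Of the table's identifiers, 54495 of 54532 were found in an annotation of GRCm38, and 53585 matched it in both start and end, 37 of the 38 members among them. Coordinates are therefore given on GRCm38. No column was left unmapped to a sample.

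FPKM times length was a whole multiple of 1 step per library for 100% of values (tolerance 0.05), which gave 14815592 to 18303302 reads per library. FPKM values imply a divisor of 0.479 to 1.23 times the reads recovered in the same library, and the sources used here do not say where it comes from. Floors of 3 reads cover counting error only. No 2 libraries agreed within sampling noise (lowest chi-square per degree of freedom 71.0, and 96.5 within a group, over genes with at least 10 reads).

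A fold change is a difference of log2(FPKM + 1), which understates the change of low genes. The filter of at least 1 FPKM in 3 or more libraries left 14421 genes. A gene under 1 FPKM in all of SC_ConD passes it only through mice with fragmented sleep, which favours a higher mean there. One limma model (version 3.58.1, R 4.3.3) held the 3 group means over the 13 libraries, with trended and robust eBayes, two-sided tests, Benjamini-Hochberg adjustment over all genes kept and a threshold of 0.05. The scripts were tested on simulated data. P-values measure the spread between mice within these groups.

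The labels number the replicates. Between SF_HPD and SC_ConD, deviations from group means of same-numbered libraries correlated at 0.71, 0.33 and 0.19 across genes, each over 0.1. The labels describe individual mice and no source of a pairing, and 1 of these 3 was highest with its own number. In the other comparisons not every correlation was over 0.1. The main fits treat no mice as pairs, and the replicate number entered only as a block in an alternative fit.

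The members and all lists were chosen with earlier results of these data known. Library values were given for 18 members fixed by name, fold changes for the 3 members of each role with the smallest p in each comparison, and up to 3 genes of each pathway list by smallest p. The values of 1 gene of the germinal centre list are not reported here. Promoter sequences are RefSeq's, on GRCm38.p6, for the 28 of 38 members with an entry, with the part from the start onward left out. Alternatives were a pseudocount of 0.1, other filters, quantile or median-of-ratios scaling, TPM, plain eBayes, only the 2 groups compared, a replicate block, limma-voom on the recovered reads, and each library left out. 3 more were chosen after seeing the data, and left out the 5 libraries with the highest member levels, SC_ConD 2 and 3, or the 4 libraries with the strongest lean to long genes.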

Additional observations from a re-analysis of the deposited data

Results flagged for a closer look

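Within the groups of 5 mice, 46 sets of values were checked for a single mouse whose gap to its nearest neighbour exceeded 0.71 of the group's range, the 95% limit of Dixon's test for 5 values. For normally distributed values, chance alone passes this limit in about 1 group in 20, and 7 of the 46 passed it. All 7 were FPKM values of single genes, flagged for their highest mouse. Such values are skewed and split into high and low mice, so that rate need not hold for them. The values of 1 mouse are not independent of each other.

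In SF_HPD, Cd4 was at 10.3 FPKM in SF_HPD 4, with the next mouse at 2.03 FPKM. Cr2 was also highest in SF_HPD 4, at 6.59 FPKM, with the next at 0.970 FPKM. In SF_HPD 5, Gzma was at 10.2 FPKM with the next mouse at 2.07 FPKM. Glycam1 in SF_HPD 5 was at 593.4 FPKM with the next at 124 FPKM. Ccl21a in SF_HPD 5 was at 141.0 FPKM with the next at 12.1 FPKM. Ccl19 in SF_HPD 5 was at 72.0 FPKM with the next at 0.0668 FPKM, where the reads of its copies set 5 mice apart. In SF_ConD, Ccl21a in SF_ConD 1 was at 329.8 FPKM, with the next mouse at 53.8 FPKM.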

How the results depend on the processing

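No member was called at an adjusted p of 0.05 under any alternative run, in any of the 3 comparisons. Over all genes the count moved from 0 to 194 in SF_ConD against SC_ConD and 196 in SF_HPD against SC_ConD without SC_ConD replicate 1, to 162 and 172 without the 4 libraries that lean to long genes (chosen after seeing the data), and to 1 in both comparisons with SF_HPD without SF_HPD replicate 5. The planned count test of edgeR on recovered reads was not run, since the deposited unit is FPKM. Rescaling to TPM moved the median of all genes from -0.03 to 0.16 in SF_ConD against SC_ConD and from 0.02 to 0.25 in SF_HPD against SC_ConD, and left 36 and 33 of 37 members higher.

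In SF_ConD against SC_ConD, limma-voom gave medians of 1.67 for NK and cytotoxic and 4.58 for B cell genes. Leaving out the 5 libraries with the highest member levels gave 0.055 for T cell, -0.34 for NK and cytotoxic, 0.15 for B cell and -0.026 for stroma and vessel genes, -0.026 for Glycam1 and -0.21 for Ccl21a. Leaving out SC_ConD 2 and 3 gave Gzmb 0.44. With single libraries left out, the role medians ran from 1.98 to 3.20, 0.61 to 1.16, 1.87 to 3.06 and 2.38 to 4.47. The order is T cell, NK and cytotoxic, B cell, stroma and vessel. The members at an unadjusted p under 0.05, in either direction, then ran from 0 (without SF_ConD 1 or 4) to 28 (without SF_ConD 3). Of the 14421 genes, 520 and 487 were at such a p without SF_ConD 1 or 4, and 1119 without SF_ConD 3. In SF_HPD against SF_ConD, the NK and cytotoxic median was -1.97 with a pseudocount of 0.1, -1.91 with a mean FPKM of at least 5 and -2.48 with limma-voom, and Glycam1 was 0.31 without the 5 libraries. With single libraries left out the role medians ran from -1.91 to -0.94, -0.96 to -0.52, -1.74 to -0.70 and -2.18 to -0.47. In SF_HPD against SC_ConD, the NK and cytotoxic median was -1.07 with a pseudocount of 0.1, -1.14 with limma-voom and 0.18 without SC_ConD 2 and 3, which also gave Gzma 0.13. The replicate block and leaving out the 5 libraries, which keep the same mice of these 2 groups, both gave -0.20 for T cell, -1.18 for NK and cytotoxic, -0.037 for B cell and 0.08 for stroma and vessel genes, 0.29 for Glycam1, -0.0052 for Ccl21a and -0.070 for Prf1. With single libraries left out the role medians ran from 0.56 to 1.47, -0.80 to 0.040, 0.63 to 1.67 and 0.76 to 2.55. The cause of these moves was not tested, apart from the libraries left out by construction. The replicate block changed no call. Low genes such as Ncr1, Chst4 and Cr2 rest on few reads in most mice.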

Other observations

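The lists of plasma cell and germinal centre genes, which report what B cells become after activation, had list means that were highest in the same 5 mice, while single genes differed. The plasma cell list averaged 2.96 to 3.49 on the log2(FPKM + 1) scale in those 5 and 1.43 to 2.56 in the other 8, and the germinal centre list 1.15 to 1.82 and 0.33 to 0.86. Jchain, which joins secreted IgM and IgA, was at 201, 64.1 and 54.0 FPKM in SF_ConD 1, 4 and 5, at 61.2 and 44.0 FPKM in SF_HPD 4 and 5, and at most at 0.789 FPKM elsewhere. Mzb1, a chaperone of antibody assembly, was at 110, 40.6 and 49.0 FPKM and at 16.2 and 64.6 FPKM in the same libraries, and at most at 2.07 FPKM elsewhere. In SF_ConD against SC_ConD the log2 fold change was 3.97 (SE 1.80) for Jchain and 3.59 (SE 1.60) for Mzb1. Jchain was higher without overlap between these groups, as were 1.68% of all genes. Sdc1, which encodes the plasma cell surface protein CD138 and is also made by epithelia, was at 3.45, 8.95 and 8.52 FPKM in SF_ConD 1, 4 and 5 and at 5.66 and 2.41 FPKM in SF_HPD 4 and 5. It was highest in SF_HPD 2, at 93.0 FPKM, the library with the highest mammary epithelium markers. Of the 7 plasma cell genes tested, 3 had higher means in SF_ConD than in SC_ConD (47.4% of all genes did, median log2 fold change -0.06). In SF_HPD 4 were lower than in SF_ConD (48.1% of all genes, median -0.06) and 3 higher than in SC_ConD (51.8% of all genes, median -0.21).

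Il21r, the receptor for IL-21, was at 14.7, 14 and 6.15 FPKM in SF_ConD 1, 4 and 5, at 9.59 and 4.83 FPKM in SF_HPD 4 and 5 and at most at 0.942 FPKM elsewhere. Bcl6, the germinal centre regulator, which other cells also make, was highest in SF_ConD 3 at 8.70 FPKM, a mouse with low member levels. Of the 5 germinal centre genes tested, 4 had higher means in SF_ConD than in SC_ConD (47.4% of all genes did, median 0.36). In SF_HPD 4 were lower than in SF_ConD (48.1% of all genes, median -0.40) and 2 higher than in SC_ConD (51.8% of all genes, median -0.01). No gene of either list passed at an adjusted p of 0.05 in limma.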
